A study of Mus musculus with 36 samples.

Results

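Egr1, Egr2, Egr3, Ier2, Ier3, Ier5 and Srf are immediate early genes, which a cell can transcribe within minutes of a stimulus from factors it already holds. The 7 genes were taken by name from the raw count matrix of C2C12 myotubes, which listed 55416 genes, and all 7 were among the 13995 genes that passed the filter on low counts. RNA was read in 36 libraries, 6 in each of 6 groups: Rest control, EPS 0h control, EPS 3h control, Rest Tug1 KD, EPS 0h Tug1 KD and EPS 3h Tug1 KD.

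C2C12 is a clonal mouse myoblast line, and in every group the cells had been switched to medium with low horse serum, transfected on day 3 with an antisense LNA (a locked nucleic acid oligonucleotide) and used 24 h later, on day 4 of differentiation. The LNA was either a negative control or one directed at Tug1, a long non-coding RNA (Tug1 KD). EPS groups received electrical pulse stimulation, a culture model of contraction, for 3 h (13 V, 66 Hz, pulses of 2 ms, alternating 5 s with and 5 s without pulses). EPS 0h wells were lysed when it ended, and EPS 3h wells 3 h later. Rest wells held electrodes that were never connected and stand for a single time point, so recovery time and stimulation cannot be told apart at EPS 3h. The first harvest therefore came 3 h after the onset of stimulation.

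Early gene transcription in muscle and other tissues runs largely through serum response factor (SRF), which binds CArG boxes in promoters together with ternary complex factors that ERK phosphorylates, or with myocardin-related factors that respond to actin. EGR1, EGR2 and EGR3 are zinc finger transcription factors that bind GC-rich elements and induce their own co-repressors, the NAB proteins. The IER genes encode small proteins: IER2 and IER5 act in the nucleus, and IER3 is a short-lived stress-response protein linked to ERK signalling and cell survival. Transcripts of these genes typically rise and decay quickly.

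The promoters that bear on this are shown where the RefSeq windows (GRCm38.p6, 250 bases before to 50 bases after each start) held a CArG box, searched as CC, 6 bases of A or T, then GG on both strands. Windows were matched for 4 of the 7 genes: Egr2 with 5, and Ier3, Ier5 and Srf with 1 each. Srf, which SRF itself is known to regulate, held 2 boxes, 82 to 73 and 62 to 53 bases before its start, and 1 match to the EGR element GCGNGGGCG, which overlaps neither. Egr2 held the box CCATATATGG, the same genomic site in 3 of its windows, and another window held the box CCTTTTTTGG, 72 to 63 bases before its start. A CArG box stood in 535 of 32851 RefSeq windows (1.63%), GCGNGGGCG in 5.55% and the cyclic AMP response element TGACGTCA, searched in the same way, in 1.79%. Capitals mark the CArG boxes in the 150 bases before the Srf start (chr17:46556163-46556312, minus strand) and in 30 bases around the Egr2 site (chr10:67537787-67537816, plus strand).
Srf: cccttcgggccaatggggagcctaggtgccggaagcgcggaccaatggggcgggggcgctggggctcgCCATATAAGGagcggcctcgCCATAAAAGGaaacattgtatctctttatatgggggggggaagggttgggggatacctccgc
Egr2: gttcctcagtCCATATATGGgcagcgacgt

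In GRCm39, the build the authors aligned to, the GENCODE annotation places Egr1 on chromosome 18 (34992876 to 34998049, plus strand), Egr2 on chromosome 10 (67371305 to 67378018, plus), Egr3 on chromosome 14 (70314350 to 70320063, plus), Ier2 on chromosome 8 (85387960 to 85389483, minus), Ier3 on chromosome 17 (36132568 to 36133815, plus), Ier5 on chromosome 1 (154972107 to 154975382, minus) and Srf on chromosome 17 (46857767 to 46867119, minus). Ier2 and Ier5 have 1 exon and Srf has 7 in the canonical transcript. Opposite-strand lncRNAs overlap Egr2, Ier3 and Srf. The strand setting of the counting is not given in the sources used here, so reads of those pairs may not have been told apart. On the same strand a lncRNA overlaps Ier5 and the microRNA gene Mir6976 overlaps Srf, which no strand setting separates. The count matrix listed none of these lncRNAs, and it listed Mir6976, which did not pass the filter on low counts.

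Libraries held 17005079 to 24181167 counts on genes. Tug1, the targeted RNA, ranged from 38.5 to 58.2 RPM (read counts scaled to a common library size with TMM factors) in Rest control and from 23.9 to 33.2 RPM in Rest Tug1 KD, with no overlap. At EPS 0h the ranges were 54.9 to 80.4 and 29.4 to 61.7 RPM, and at EPS 3h they were 54.5 to 106.7 and 39.9 to 84.3 RPM. The knockdown difference was -0.83 (FDR = 0.000915), -0.57 (FDR = 0.0178) and -0.51 (FDR = 0.0414) on the log2 scale. The EPS 0h call was lost without replicate 3 or 5 (FDR = 0.0586 and 0.0758), and the EPS 3h call without replicate 1, 3, 4, 5 or 6 (FDR = 0.0521 to 0.146). The 9 myotube markers summed to between 14065 and 21232 RPM in all 36 libraries. The 6 markers of dividing or undifferentiated myoblasts summed to a median of 160.5 RPM in Rest control (136 to 176) and 192 RPM in EPS 0h control (174 to 209.8), where 2 of the 6 rose and 1 fell. With Tug1 KD against control, 3 of the 6 were lower at an unadjusted p under 0.05 at Rest and at EPS 0h with 0 called by edgeR, and 1 was called lower at EPS 3h. The sums of 3 markers each reached at most 221 RPM for fibroblasts, 5.43 RPM for macrophages, 2.62 RPM for adipocytes and 9.11 RPM for endothelium. With Tug1 KD against control, 1 of the 2 tested fibroblast markers was called lower by edgeR in each of the 3 conditions. Against Rest, 1 of these 2 was called lower at both harvests with either LNA. The 1 tested macrophage marker was called lower with Tug1 KD at Rest (-1.02) and EPS 3h (-0.72), and not at EPS 0h (-0.27). From Rest control to EPS 3h control the median endothelial sum went from 0.944 to 6.998 RPM and the adipocyte sum from 0.161 to 1.85 RPM. The part of these markers in the results was not tested. In bulk RNA, fewer cells of a type and less RNA per cell cannot be told apart. Replicates 1 to 3 parted from 4 to 6 on the first principal component within Rest and within EPS 0h when compared inside each LNA, and the EPS 3h libraries of replicate 3 in both LNAs lay with replicates 4 to 6. Each library came from 1 well, and the wells came from 2 independent experiments of 3 wells per group, so p-values measure the spread between wells. The sources do not say which replicate number belongs to which experiment. The replicate sets (1 to 3 and 4 to 6) used here follow from how the Rest and EPS 0h libraries parted. At EPS 3h, replicate 3 was kept in the first set although it lay with the second. Values are also given within each set and, where this changes a call, without the EPS 3h libraries of replicate 3.

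**Figure D1:**
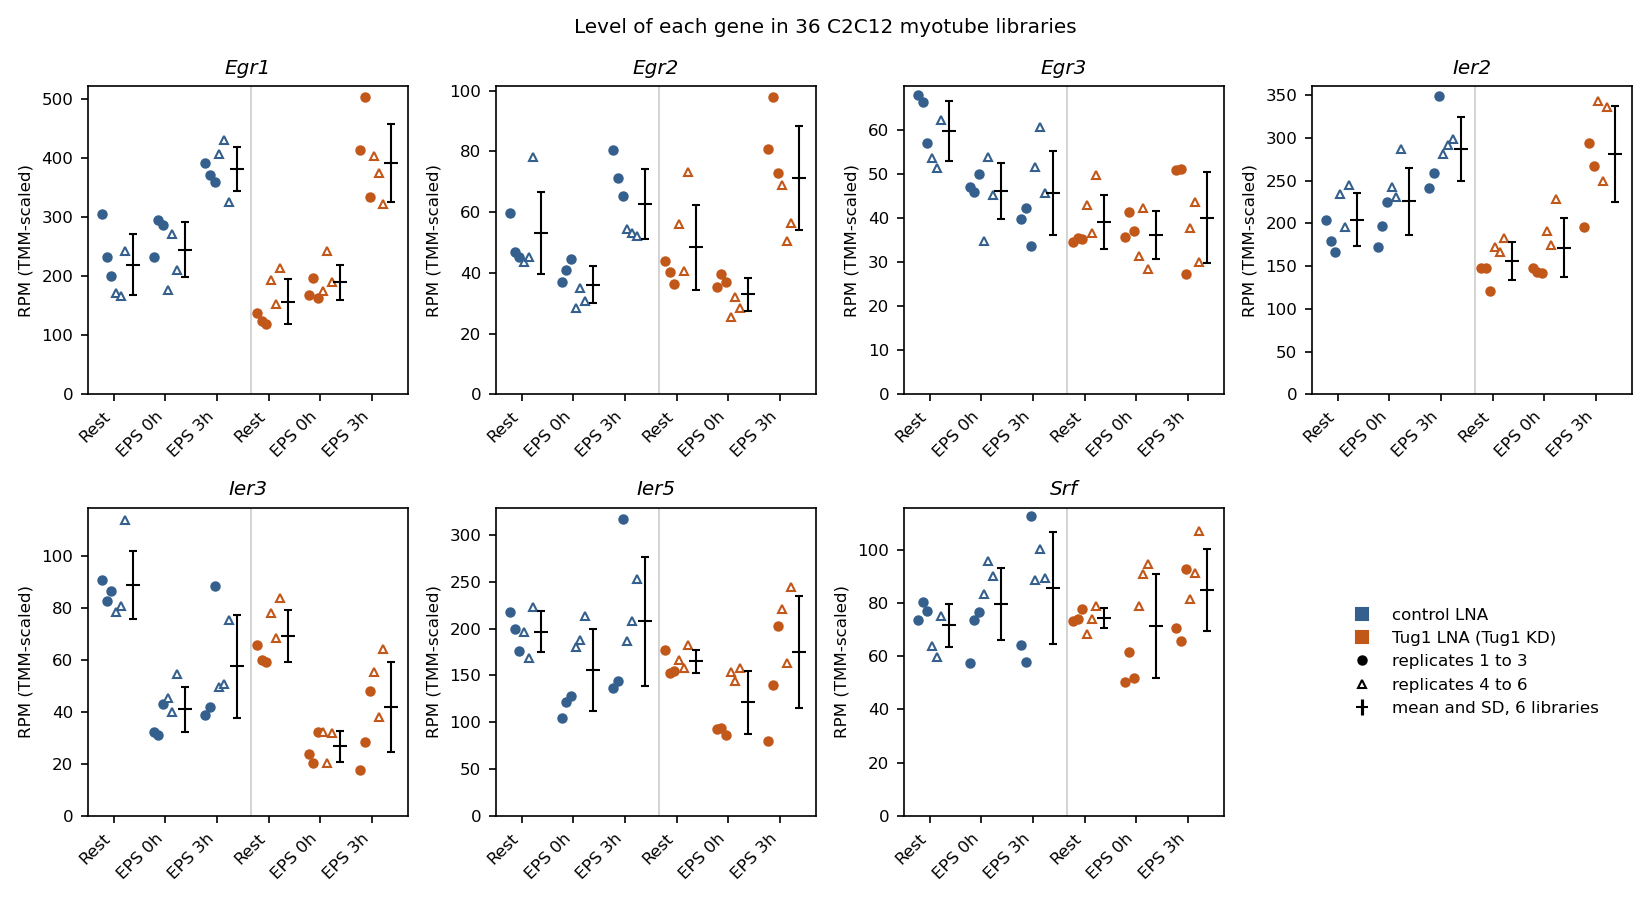
Level of each gene (TMM-scaled RPM, linear axis from 0) in every library by group, with filled circles for replicates 1 to 3, open triangles for replicates 4 to 6, and the mean and SD of 6 libraries beside them. Egr1 and Ier2 are highest in the EPS 3h groups (means of 281 to 392 RPM), while Ier3 is highest in Rest control (88.6 RPM) and lowest in EPS 0h Tug1 KD (26.7 RPM).

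Per length, Ier2 was the most abundant of the 7 in Rest control, at 134 ± 20.1 RPKM (RPM per kilobase of exon, SD, n = 6). Ier3 followed at 77.8 RPKM, Ier5 at 60.0 RPKM and Egr1 at 48.9 RPKM. Srf (16.2 RPKM), Egr2 (15.6 RPKM) and Egr3 (12.7 RPKM) were the lowest. All 7 were thus detected in wells that received no pulses. In EPS 3h control the order changed to Ier2 (188 RPKM), Egr1 (84.8 RPKM), Ier5 (63.4 RPKM) and Ier3 (50.4 RPKM), with Srf (19.4 RPKM), Egr2 (18.4 RPKM) and Egr3 (9.69 RPKM) again lowest.

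Srf, the regulator, passed the test in none of the comparisons by edgeR. Its lowest, median and highest RPM were 59.7, 74.5 and 80.5 in Rest control, 57.5, 79.9 and 95.7 in EPS 0h control, and 57.8, 89.0 and 112.8 in EPS 3h control. In the Tug1 KD groups they were 68.2, 74.0 and 79.0 at Rest, 50.3, 70.3 and 94.6 at EPS 0h, then 65.8, 86.4 and 107.1 at EPS 3h. All groups overlapped, and no group mean stood above the next lower one by more than the larger SD of the pair. The highest library in EPS 3h control was replicate 3. The log2 fold change was 0.15 at EPS 0h (95% interval -0.16 to 0.46, edgeR quasi-likelihood, FDR = 0.461) and 0.25 at EPS 3h (-0.06 to 0.57, FDR = 0.164) against Rest with the control LNA. With the Tug1 LNA it was -0.06 (-0.37 to 0.25, FDR = 0.779) and 0.19 (-0.12 to 0.50, FDR = 0.309). In the fit on replicates 4 to 6 alone Srf was higher than Rest with the control LNA by 0.44 at EPS 0h (FDR = 0.00631) and by 0.49 at EPS 3h (FDR = 0.00154), and with the Tug1 LNA by 0.34 at EPS 3h (FDR = 0.0199); within replicates 1 to 3 these values were -0.16, 0.04 and 0.04.

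Egr1, the EGR factor most widely used as a marker of early gene induction, did not pass the test at EPS 0h and was higher after recovery. Its lowest, median and highest RPM with the control LNA were 166, 217 and 306 at Rest, 176, 252 and 295 at EPS 0h, then 325, 382 and 432 at EPS 3h. The Rest and EPS 0h ranges overlapped almost fully, and every EPS 3h library was above every Rest library and every EPS 0h library. The Tug1 KD values were 119, 146 and 214 at Rest, 163, 183 and 243 at EPS 0h, then 322, 390 and 503 at EPS 3h. The same separation held there. Egr1 rose 1.73-fold at EPS 3h against Rest with the control LNA (log2 fold change 0.79, SE 0.15, FDR = 3.47e-05) and 2.49-fold with the Tug1 LNA (1.32, SE 0.15, FDR = 4.29e-09). Against EPS 0h it rose by 0.64 (FDR = 0.00234) and 1.05 (FDR = 2.81e-06). At EPS 0h the differences from Rest were 0.16 (-0.15 to 0.46, FDR = 0.421) and 0.27 (-0.03 to 0.57, FDR = 0.1402). Within replicates 1 to 3 alone the latter was called (0.48, FDR = 0.0152), and within replicates 4 to 6 it was 0.12.

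Egr2, which acts in Schwann cell and lymphocyte differentiation, fell by the end of stimulation and rose during recovery. With the control LNA its lowest, median and highest RPM were 43.5, 46.0 and 78.2 at Rest, 28.5, 36.1 and 44.5 at EPS 0h, then 52.2, 59.8 and 80.6 at EPS 3h. Under the Tug1 LNA they were 36.2, 42.3 and 73.4 at Rest, 25.4, 33.6 and 39.8 at EPS 0h, then 50.4, 70.9 and 97.9 at EPS 3h. In both LNAs the EPS 0h and EPS 3h libraries did not overlap, whereas Rest overlapped with each of them. Egr2 fell at EPS 0h by 0.56 on the log2 scale with the control LNA (SE 0.17, FDR = 0.00929) and by 0.56 with the Tug1 LNA (SE 0.17, FDR = 0.00830). From EPS 0h to EPS 3h it rose 1.74-fold (FDR = 0.000900) and 2.16-fold (FDR = 9.23e-06). Against Rest the EPS 3h level was higher with the Tug1 LNA (0.56, SE 0.17, FDR = 0.00635), and with the control LNA the difference was 0.24 (-0.10 to 0.58, FDR = 0.240), being 0.53 within replicates 1 to 3 (FDR = 0.00290) and -0.06 within replicates 4 to 6, and 0.46 without replicate 6 (FDR = 0.0106).

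The highest Rest library for Egr2 was replicate 6 in both LNAs, and several of its calls turned on single replicate numbers. Without replicate 6 the control fall at EPS 0h was -0.35 (FDR = 0.0590), and the control difference at EPS 3h became 0.46 (FDR = 0.0106). Without replicate 4 the Tug1 KD fall at EPS 0h was -0.45 (FDR = 0.0593), and without replicate 2 the Tug1 KD rise at EPS 3h was 0.40 (FDR = 0.0805).

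Egr3, an EGR factor needed for muscle spindle development, had its highest mean in Rest control. Its lowest, median and highest RPM were 51.5, 59.7 and 67.9 in Rest control, 34.7, 46.4 and 53.9 in EPS 0h control, and 33.7, 44.0 and 60.6 in EPS 3h control. In Tug1 KD wells they were 34.6, 35.97 and 49.8 at Rest, 28.5, 36.5 and 42.3 at EPS 0h, then 27.3, 40.6 and 51.2 at EPS 3h. Rest control did not overlap with Rest Tug1 KD, and the mean of Rest control (59.8 RPM) exceeded the next highest group mean (46.1 RPM) by more than the larger SD of 6.78 RPM. Egr3 fell against Rest with the control LNA by 0.37 on the log2 scale at EPS 0h (SE 0.14, FDR = 0.0352) and by 0.39 at EPS 3h (SE 0.14, FDR = 0.0218). With the Tug1 LNA the differences were -0.12 (-0.41 to 0.17, FDR = 0.527) and 0.04 (-0.25 to 0.33, FDR = 0.849). The control calls were not firm: at EPS 0h the FDR was 0.0833 to 0.106 without replicate 1, 2, 4 or 6, and at EPS 3h it was 0.0611 to 0.110 without replicate 1, 2, 3 or 6. The fall at EPS 3h was -0.71 within replicates 1 to 3 and -0.08 within replicates 4 to 6 (difference 0.64, SE 0.25, FDR = 0.255), and that at EPS 0h was -0.42 and -0.33, called in neither set alone.

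Ier2, which encodes a nuclear protein, did not pass the test at EPS 0h and was higher than Rest after recovery. With the control LNA its lowest, median and highest RPM were 167, 199.9 and 246 at Rest, 172, 228 and 288 at EPS 0h, then 242, 287 and 349 at EPS 3h. For the Tug1 KD groups they were 121, 157 and 182 at Rest, 143, 162 and 229 at EPS 0h, then 196, 281 and 344 at EPS 3h. With the control LNA the EPS 3h range began just below the top of the Rest range, and with the Tug1 LNA all EPS 3h libraries lay above those at Rest. Ier2 rose 1.40-fold at EPS 3h against Rest with the control LNA (0.49, SE 0.14, FDR = 0.00294) and 1.80-fold with the Tug1 LNA (0.85, SE 0.14, FDR = 3.16e-06). At EPS 0h the differences from Rest were 0.14 (-0.13 to 0.42, FDR = 0.425) and 0.13 (-0.15 to 0.41, FDR = 0.446). From EPS 0h to EPS 3h it rose by 0.71 with the Tug1 LNA (FDR = 0.000234) and differed by 0.35 with the control LNA (0.07 to 0.62, FDR = 0.0800), which was called within replicates 1 to 3 alone (0.54, FDR = 0.0255), with a block for the replicate set (1 to 3 or 4 to 6, FDR = 0.00959) and without replicate 6 (FDR = 0.0416).

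Ier3 fell against Rest at both harvests with either LNA. With the control LNA its lowest, median and highest RPM were 78.5, 84.4 and 113.6 at Rest, 31.1, 41.3 and 54.4 at EPS 0h, then 38.6, 50.1 and 88.4 at EPS 3h. The corresponding Tug1 KD values were 59.0, 67.0 and 83.6 at Rest, 20.1, 27.7 and 32.3 at EPS 0h, then 17.5, 42.9 and 64.0 at EPS 3h. Every EPS 0h library was below every Rest library in both LNAs, and the EPS 3h libraries overlapped with both. Ier3 fell at EPS 0h to 0.462 of its Rest level with the control LNA (-1.11, SE 0.22, FDR = 9.32e-05) and to 0.386 with the Tug1 LNA (-1.37, SE 0.22, FDR = 4.02e-06). At EPS 3h it was still lower than Rest, by 0.63 (SE 0.21, FDR = 0.0138) and by 0.73 (SE 0.21, FDR = 0.00486) on the log2 scale. Within replicates 1 to 3 alone the control difference was -0.60 and not called (FDR = 0.0961), and within replicates 4 to 6 it was -0.63. Between EPS 0h and EPS 3h Ier3 rose by 0.65 with the Tug1 LNA (SE 0.22, FDR = 0.0368). That call was lost without the EPS 3h libraries of replicate 3 (0.60, FDR = 0.0654) and without replicate 2, 3, 4, 5 or 6 (FDR = 0.0579 to 0.131). It was also lost by limma-voom (0.55, FDR = 0.101), with library size alone (FDR = 0.0607) and with no filter on low counts (FDR = 0.141). The groups compared alone (FDR = 0.135) and replicates 1 to 3 alone (0.30, FDR = 0.588) lost it too, while the replicate block kept it (FDR = 0.00332). With the control LNA the difference was 0.49 (0.05 to 0.92, FDR = 0.126).

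Ier5, a regulator of the heat shock response and of a phosphatase complex, had no call against Rest in the fit of all libraries. With the control LNA its lowest, median and highest RPM were 168, 198 and 223 at Rest, 104.5, 154 and 213 at EPS 0h, then 136, 198 and 318 at EPS 3h. Tug1 KD wells gave 153, 162 and 183 at Rest, 86.2, 119 and 158 at EPS 0h, then 80.4, 183 and 244 at EPS 3h. At EPS 0h the 3 lowest libraries of each LNA were replicates 1 to 3, and at EPS 3h the highest control library was replicate 3. The difference at EPS 0h was -0.34 with the control LNA (-0.76 to 0.09, FDR = 0.210) and -0.45 with the Tug1 LNA (-0.87 to -0.02, FDR = 0.0812); with the replicate number as a block the latter had FDR = 0.0143. It was also called with library size alone (FDR = 0.0308), upper quartile factors (FDR = 0.0458), the set block (FDR = 0.0217) and the groups compared alone (FDR = 0.0185). Within replicates 1 to 3 alone the fall was called with both LNAs (-0.75, FDR = 0.0374, and -0.82, FDR = 0.0188), and within replicates 4 to 6 the values were -0.02 and -0.15. At EPS 3h the differences from Rest were 0.08 (-0.35 to 0.50, FDR = 0.780) and 0.08 (-0.34 to 0.51, FDR = 0.763). From EPS 0h to EPS 3h the Tug1 KD difference was 0.53 (0.10 to 0.96, FDR = 0.0874), and 0.0259 was its FDR with the replicate block. It was also called with the set block (FDR = 0.0269), within replicates 4 to 6 alone (0.46, FDR = 0.0332) and without replicate 1 (FDR = 0.0287). No other alternative called it.

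**Figure D2:**
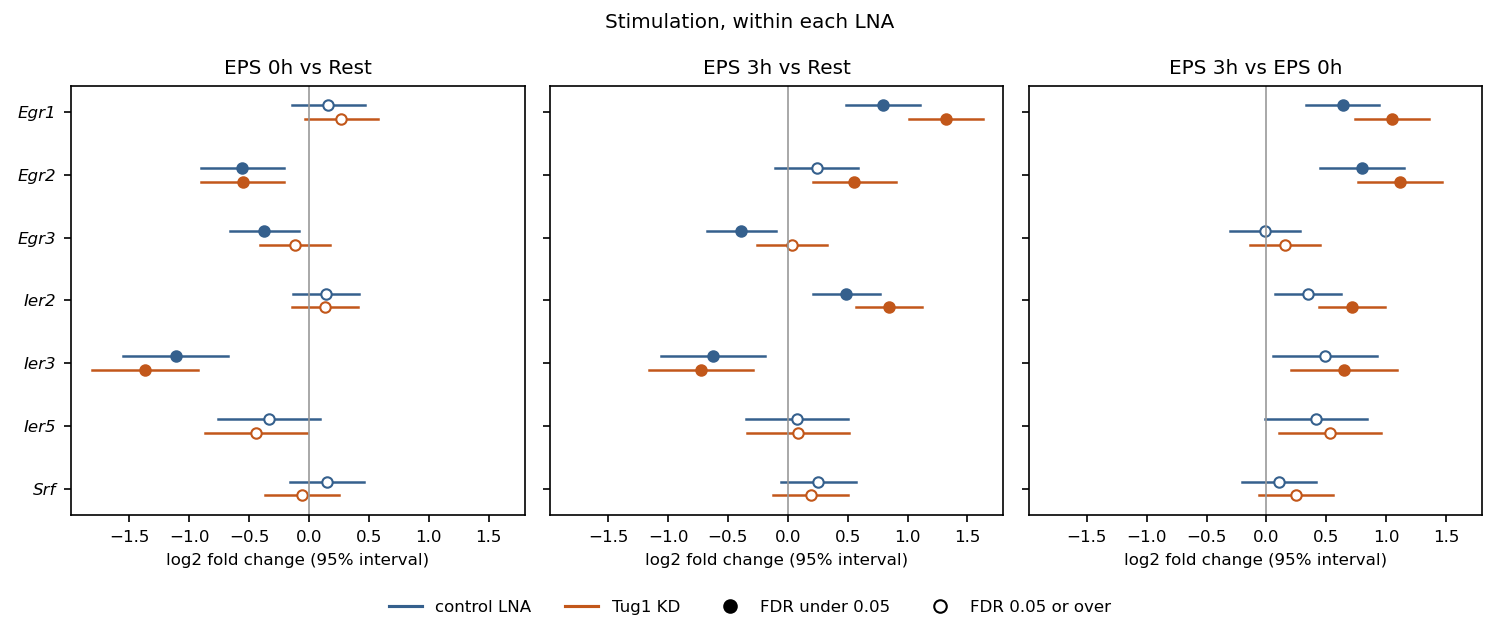
Log2 fold change (point) with its 95% interval (line) of each gene between stimulated and Rest groups and between the 2 harvests, in blue with the control LNA and in orange with the Tug1 LNA; filled points have FDR under 0.05. Ier3 lies furthest left at EPS 0h (-1.11 and -1.37), and Egr1 furthest right at EPS 3h against Rest (0.79 and 1.32).

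At EPS 0h with the control LNA, 3 of the 7 genes fell (Egr2, Egr3 and Ier3) and 0 rose by edgeR, and 3 had an unadjusted p under 0.05. Of all 13995 genes 18.4% fell, 20.5% rose and 46.8% had an unadjusted p under 0.05. In every comparison of 2 groups in which 0 of the 7 rose, or 0 fell, by edgeR, DESeq2 and limma-voom also called 0 in that direction. The median log2 fold change was -0.34 over the 7 genes and -0.03 over all genes tested. With the Tug1 LNA 2 of the 7 fell (Egr2 and Ier3), beside 21.2% of all genes, and 0 rose, beside 24.4%. An unadjusted p under 0.05 was reached by 3 of the 7 and by 52.6% of all genes. At the stricter rule of FDR under 0.01 and a log2 fold change beyond 1, Ier3 was the 1 gene called in each LNA, both times lower, beside 2.2% and 2.5% of all genes. The stricter rule called 6.23% and 8.15% of all genes higher, and 0 of the 7. Ier3 did not overlap between EPS 0h and Rest in either LNA, a separation downward seen in 10.1% of all genes with the control LNA and 9.52% with the Tug1 LNA. Upward separation was seen in 11.8% and 13%, and in 0 of the 7.

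At EPS 3h with the control LNA, 2 genes rose against Rest (Egr1 and Ier2), beside 26.1% of all genes, and 2 fell (Egr3 and Ier3), beside 25.9%. With the Tug1 LNA 3 rose (Egr1, Egr2 and Ier2), beside 26.2%, and 1 fell (Ier3), beside 25.9%. An unadjusted p under 0.05 was reached by 4 of the 7 with each LNA, beside 57.3% and 57.2% of all genes. The stricter rule left 0 with the control LNA (9.62% of all genes higher, 4.72% lower). It left Egr1 alone with the Tug1 LNA (11% higher, 4.49% lower). Egr1 did not overlap with Rest in either LNA and Ier2 did not with the Tug1 LNA, upward separations seen in 15.2% and 15.9% of all genes. Downward separation was seen in 13.8% and 14%, and in 0 of the 7. Both harvests were compared with the same Rest libraries. Scaling by library size alone, without TMM, moved the median of all genes at EPS 3h by -0.17 on the log2 scale in both LNAs. No called gene changed direction under it.

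From EPS 0h to EPS 3h with the control LNA, 2 of the 7 rose (Egr1 and Egr2) and 0 fell by edgeR, beside 9.67% and 6.88% of all genes, and 4 had an unadjusted p under 0.05, beside 26.9%. Neither Egr1 nor Egr2 overlapped between the harvests, as held upward for 4.67% of all genes and downward for 2.62%. With the Tug1 LNA 4 rose by edgeR (Egr1, Egr2, Ier2 and Ier3) and 0 fell, beside 8.59% and 7.13%. Of these 4, limma-voom did not call Ier3 (FDR = 0.101). An unadjusted p under 0.05 was reached by 5 of the 7, beside 26.9%. Again Egr1 and Egr2 did not overlap, as held upward for 4.5% of all genes and downward for 2.37%. All 7 estimates with the Tug1 LNA were above 0, with a median of 0.65 against -0.02 over all genes.

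**Figure D3:**
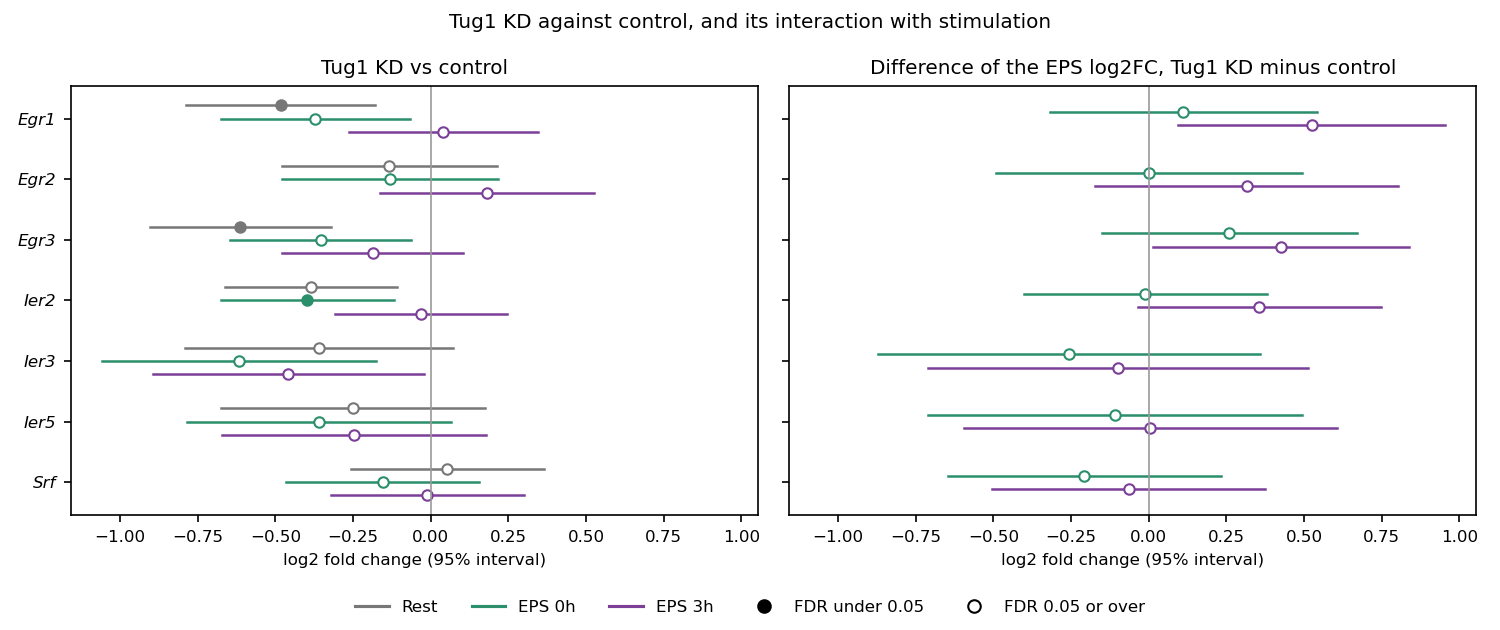
Left, log2 fold change with 95% interval of Tug1 KD against control at Rest (grey), EPS 0h (green) and EPS 3h (purple). Right, the difference between the log2 fold changes that stimulation gave with the Tug1 LNA and with the control LNA; filled points have FDR under 0.05. Egr1 and Egr3 are lower at Rest (-0.48 and -0.61) and Ier2 at EPS 0h (-0.40), and no difference on the right passes the test.

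Knockdown of Tug1 was compared with the control LNA within each condition. At Rest, Egr1 fell by 0.48 on the log2 scale (SE 0.15, FDR = 0.0324) and Egr3 by 0.61 (SE 0.14, FDR = 0.00333), so 2 of the 7 fell, beside 4.47% of all genes, and 0 rose, beside 5.54%. An unadjusted p under 0.05 was reached by 3 of the 7, beside 21.3%. The Egr3 libraries of the groups did not overlap, as held for 3.73% of all genes in that direction and 4.34% in the other. Those of Egr1 did overlap, from 119 to 214 RPM with the Tug1 LNA and from 166 to 306 RPM with the control LNA. The Egr1 difference was -0.95 within replicates 1 to 3 and -0.05 within replicates 4 to 6, and without replicate 1, 2 or 3 its FDR was 0.111 to 0.262. For Egr3 the sets gave -0.86 and -0.37, the latter not called alone (FDR = 0.152). Ier2 stood at -0.39 (-0.66 to -0.11, FDR = 0.0688), with all 6 Tug1 KD libraries below the control mean and -0.40 and -0.37 in the sets. It was called by DESeq2 (FDR = 0.0477), with library size alone (0.0485), upper quartile factors (0.0480), the groups compared alone (0.0402) and the set block (0.00784), and not by limma-voom. Ier3 was called with the groups compared alone (-0.35, FDR = 0.0366). That same fit lost the Egr1 call (-0.47, FDR = 0.0702), as did the fit with no filter on low counts (-0.45, FDR = 0.0547).

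At EPS 0h, Ier2 fell by 0.40 (SE 0.14, FDR = 0.0456) and was the 1 gene of the 7 called by edgeR, beside 6.07% of all genes that fell and 8.25% that rose. An unadjusted p under 0.05 was reached by 4 of the 7, beside 26.7%, and no member separated fully, beside 3.11% downward and 4.83% upward. Without replicate 2, 3, 4 or 5 the FDR of Ier2 was 0.101 to 0.131. It was 0.103 within replicates 1 to 3 alone and 0.0646 within replicates 4 to 6 alone. It was 0.0878 with the groups compared alone, 0.0885 with no filter on low counts and 0.0545 with a stricter filter. With the replicate block it was 0.00218. Ier3 stood at -0.62 (-1.06 to -0.18, FDR = 0.0505), with FDR = 0.00266 under the replicate block and FDR = 0.0418 without the EPS 3h libraries of replicate 3, which also enter the fit. DESeq2 (FDR = 0.0284), library size alone (0.0335), upper quartile factors (0.0288), the groups compared alone (0.0265) and the set block (0.0233) called Ier3 too. So did replicates 4 to 6 alone (-0.73, FDR = 0.0228) and the fit without replicate 1 (FDR = 0.0388). Ier3 was not called by limma-voom, with the other filters on low counts, within replicates 1 to 3 alone (-0.46) or without replicate 2, 3, 4, 5 or 6. Egr1 at -0.37 (FDR = 0.0949) was called within replicates 1 to 3 alone (-0.61, FDR = 0.0223) and was -0.11 within replicates 4 to 6. All 7 estimates at EPS 0h were below 0, with a median of -0.36 over the 7 genes and -0.0025 over all genes tested.

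At EPS 3h 0 of the 7 genes passed by edgeR, DESeq2 or limma-voom, beside 5.11% of all genes lower and 6.38% higher by edgeR. Ier3 alone had an unadjusted p under 0.05, beside 23.6% of all genes, and no member separated fully, beside 1.94% downward and 2.68% upward. Ier3 stood at -0.46 (-0.89 to -0.02, FDR = 0.183), and with the replicate block FDR = 0.0188. It was not called with the set block, the sets gave -0.85 and -0.16, and without the EPS 3h libraries of replicate 3 it was -0.33 (FDR = 0.424). The Egr1 difference was 0.04 (-0.26 to 0.34, FDR = 0.917), and that of Egr2 was 0.18 (-0.16 to 0.53, FDR = 0.581).

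Whether stimulation changed the 7 genes differently with the Tug1 LNA was tested as an interaction. At EPS 0h 0 of 7 passed by edgeR, DESeq2 or limma-voom, beside 0 of all genes by edgeR, and 0 of the 7 had an unadjusted p under 0.05, beside 2.32%. At EPS 3h 0 of 7 passed by the same tools, beside 0.00715% of all genes by edgeR, and 2 had an unadjusted p under 0.05, beside 3.07%. Those were Egr1, whose rise was larger by 0.52 with the Tug1 LNA (95% interval 0.09 to 0.95), and Egr3 (0.43, 0.02 to 0.84), both with FDR = 0.9999. The Egr1 interaction was 1.11 within replicates 1 to 3 and -0.03 within replicates 4 to 6. For Ier2 the interval at EPS 3h ran from -0.04 to 0.75, for Egr2 from -0.17 to 0.80, for Ier3 from -0.71 to 0.51, for Ier5 from -0.60 to 0.61 and for Srf from -0.50 to 0.37.

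**Figure D4:**
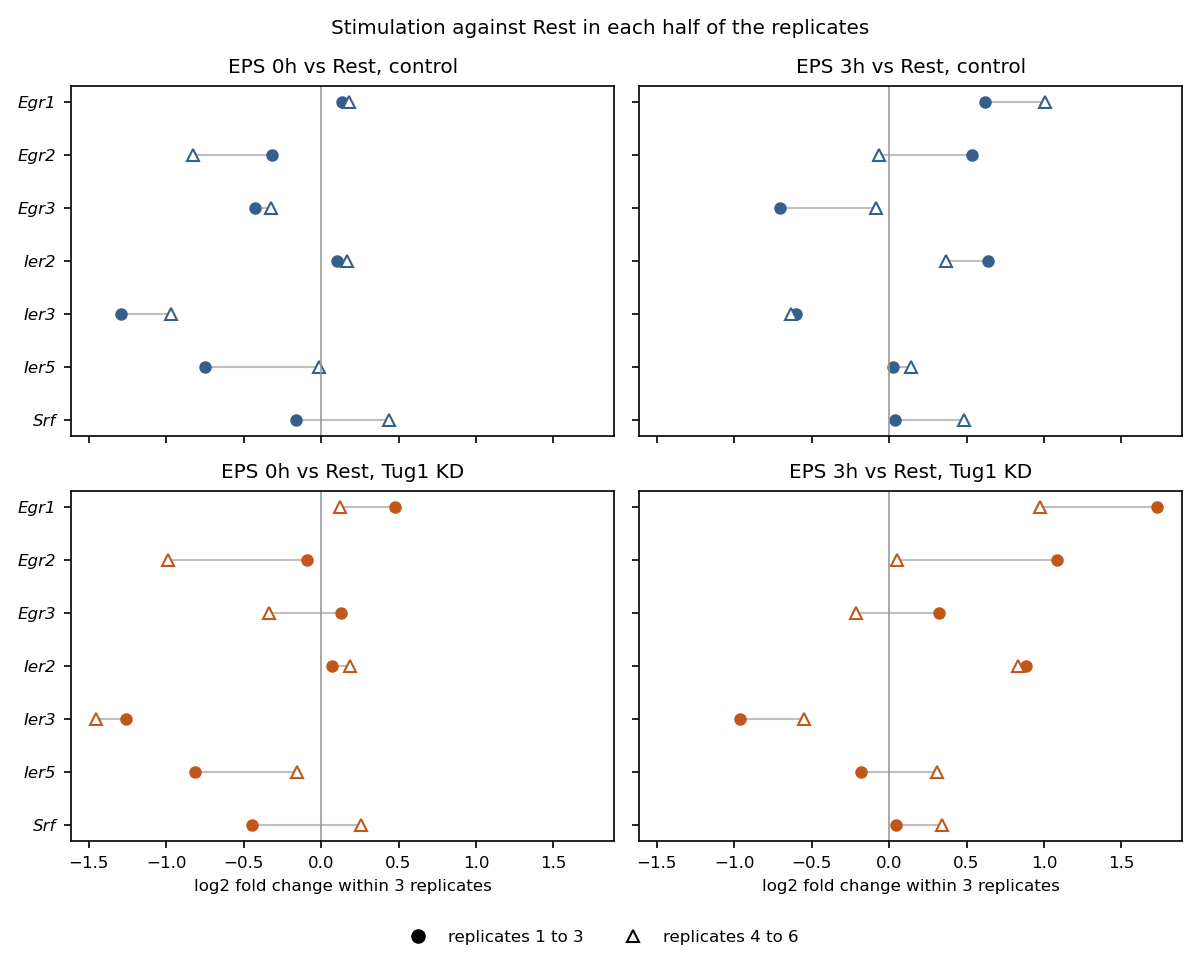
Log2 fold change against Rest of each gene fitted within replicates 1 to 3 (filled circles) and within replicates 4 to 6 (open triangles), for each LNA and harvest. Ier3, Egr1 and Ier2 keep their side of 0 in all 4 panels, while Srf at EPS 0h lies below 0 in replicates 1 to 3 and above 0 in replicates 4 to 6 (-0.16 and 0.44 with the control LNA).

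Replicates 1 to 3 and replicates 4 to 6 gave the same direction for all calls at EPS 0h, but not the same size. The fall of Ier3 at EPS 0h was -1.29 in the first set and -0.97 in the second with the control LNA, and -1.26 and -1.46 with the Tug1 LNA. The fall of Egr2 was -0.32 and -0.83 with the control LNA, and -0.09 and -0.99 with the Tug1 LNA. In a model with each set of each group as its own level, this last difference (-0.89, SE 0.26) had FDR = 0.0418, and 6.46% of all genes passed in that comparison. The sets were drawn from how these same libraries parted, so no FDR between the sets is an independent test. Srf at EPS 0h differed between the sets by 0.71 with the Tug1 LNA (SE 0.23, FDR = 0.0550) and by 0.59 with the control LNA (SE 0.23, FDR = 0.233). At EPS 3h the rise of Egr1 was 0.62 and 1.01 with the control LNA and 1.73 and 0.97 with the Tug1 LNA, and that of Egr2 with the Tug1 LNA was 1.08 and 0.05 (difference -1.01, SE 0.26, FDR = 0.105).

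Other genes of the pathway were read from 5 lists and are given as counts beside the shares of all genes above. Of the SRF cofactors, 5 of 6 were tested (Myocd reached at most 73 counts), and 0 passed by edgeR at EPS 0h with the control LNA, with 0 at an unadjusted p under 0.05. At EPS 3h 2 fell, Elk3 (-0.42, FDR = 0.0116), a ternary complex factor, and Mrtfa (-0.35, FDR = 0.00148), a myocardin-related factor. Leaving out replicate 2 or 3 lost the Elk3 call (FDR = 0.0659 and 0.0579), as did the groups compared alone (FDR = 0.0642). In replicates 4 to 6 alone neither Elk3 (-0.11, FDR = 0.427) nor Mrtfa (-0.23, FDR = 0.0628) was called.

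Of the ERK and p38 kinase genes, 14 of 15 were tested and Rps6ka4 was not analysed here. At EPS 0h with the control LNA 4 rose and 2 fell, and at EPS 3h 3 rose and 2 fell. Creb1, the factor that nuclear MAP kinase-activated kinases phosphorylate, rose by 0.77 at EPS 0h (FDR = 6.22e-06) and 0.60 at EPS 3h (FDR = 0.000123). Braf, a kinase upstream of ERK, rose by 0.49 at EPS 0h (FDR = 0.0112). Rps6ka5, which encodes the nuclear kinase MSK1, rose by 0.70 at EPS 3h (FDR = 0.0453), a call lost without replicate 1, 2, 3, 4 or 5 (FDR = 0.0547 to 0.105). It was also lost by limma-voom (FDR = 0.0591), with library size alone (FDR = 0.127) and with upper quartile factors (FDR = 0.0590). No filter on low counts (FDR = 0.129) and a stricter one (FDR = 0.0560) lost it too.

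Nab1 and Nab2 encode the co-repressors that bind EGR proteins, and both rose at EPS 0h with the control LNA, where Egr2 and Egr3 fell. Nab1 went from 41.2 ± 7.18 RPM in Rest control to 92.6 ± 18.3 RPM at EPS 0h (1.17, FDR = 8.96e-08) and 102.6 ± 22.2 RPM at EPS 3h (1.32, FDR = 2.61e-09). Nab2 went from 82.8 ± 9.56 RPM to 165 ± 47.3 RPM at EPS 0h (1.00, FDR = 0.000133). Of this list of 5 genes, 4 were tested: Egr4 had at most 6 counts in any library. Besides the 2 co-repressors that rose, Ier5l, a relative of Ier5, fell at EPS 3h by 1.51 (FDR = 2.99e-05), and Ier3ip1 passed at neither harvest.

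Of 16 cytoskeletal SRF target genes, 15 were tested. At EPS 0h with the control LNA 4 rose and 0 fell by edgeR, and an unadjusted p under 0.05 was reached by 5, all higher. At EPS 3h 5 rose and 1 fell. The called genes with the largest change were Ccn2, a secreted matrix protein gene, at 0.83 (FDR = 2.89e-05) and 0.57 (FDR = 0.00133), and Fhl2, a LIM protein gene, at 0.63 (FDR = 8.63e-08) and 0.62 (FDR = 4.24e-08). Of 16 other serum-induced early genes, all tested, 6 rose and 5 fell at EPS 0h, and 10 rose and 3 fell at EPS 3h. Arc, which encodes an activity-regulated cytoskeletal protein, rose by 1.40 (FDR = 7.37e-09) and 1.83 (FDR = 5.66e-12). Phlda1, a pleckstrin homology domain gene, rose by 1.44 at EPS 0h (FDR = 0.000263), and Ppp1r15a, which encodes a phosphatase subunit of the stress response, by 1.32 at EPS 3h (FDR = 2.35e-12).

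With Tug1 KD against control, the same 16 early genes had 4 lower at Rest, 5 at EPS 0h and 2 at EPS 3h, and 0 higher by edgeR in each. Of all genes 4.47%, 6.07% and 5.11% were lower and 5.54%, 8.25% and 6.38% higher. At an unadjusted p under 0.05 the 16 genes had 7, 9 and 5 lower and 1, 0 and 0 higher. Of all genes 21.3%, 26.7% and 23.6% reached this in either direction. None of the SRF cofactors, EGR co-repressors and relatives, or cytoskeletal targets passed in any of the 3 conditions by edgeR, and at most 2 genes of a list had an unadjusted p under 0.05. The kinase list had 2 higher and 1 lower in each.

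**Figure D5:**
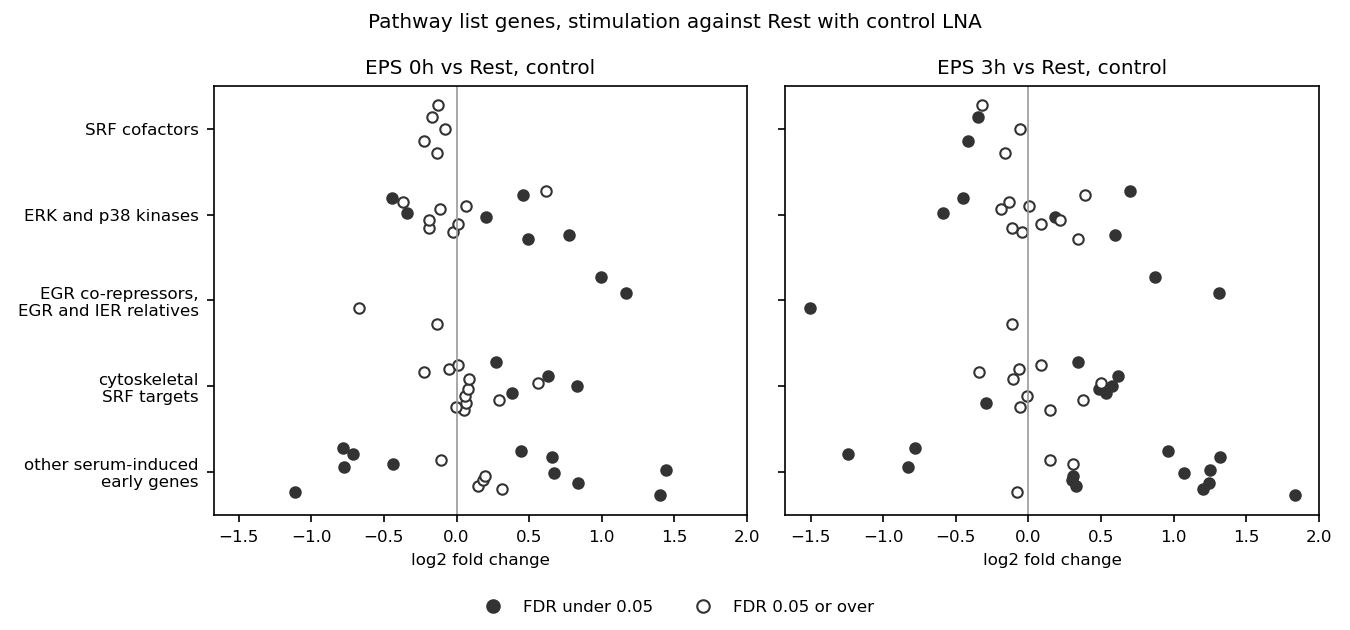
Log2 fold change against Rest with the control LNA of each tested gene of the 5 pathway lists at EPS 0h (left) and EPS 3h (right); filled points have FDR under 0.05. The other serum-induced early genes spread widest, with 6 higher and 5 lower at EPS 0h, and all 5 SRF cofactors lie below 0.

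Over the 36 libraries, which share groups and replicate sets, the 7 genes did not vary as one set. Pearson's r of log2(RPM + 0.5) was highest between Ier3 and Ier5 (0.77), Egr1 and Ier2 (0.75), and Ier5 and Srf (0.71), and Egr1 and Egr2 reached 0.67. The lowest were Egr1 with Ier3 (-0.16) and Egr3 with Srf (-0.13). Centred within the replicate sets, these values were 0.76, 0.82, 0.64, 0.68, -0.16 and -0.15.

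The genes whose levels were most like those of each member were named by the same measure among all genes tested. For Egr1 they were Aloxe3 (r = 0.91), Jun (0.90), the AP-1 subunit gene, and Gm8696 (0.90). For Egr2 they were Nell2 (0.84), Dusp10 (0.82), which encodes a MAP kinase phosphatase, and Neurl3 (0.81), and for Egr3 they included Nedd9 (0.78) and Foxred2 (0.76). For Ier2 they were Plaur (0.89), the urokinase receptor gene, Tbrg4 and Ints5. For Ier3 they were Osgin1 (0.92), Gclm (0.91), the glutamate-cysteine ligase modifier subunit gene, and Pgd (0.91), a pentose phosphate pathway enzyme gene. For Ier5 they were Homer3 (0.92), Hmga1b (0.92), whose counts are uncertain because it is nearly identical to Hmga1, and Cltb (0.90). For Srf they were 6430573P05Rik, Cactin and Pcbp1 (0.83 to 0.84).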

How the data were processed

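Gene-level read counts of 36 poly-A RNA libraries, deposited by the authors as 1 matrix of raw counts, were analysed. Per the study's methods, reads from a directional paired-end kit were trimmed with fastp 0.14.1, checked with FastQC 0.11.7 and aligned per library with STAR 2.5 in two-pass mode to GRCm39. The counting tool and its strand setting are not given in the sources used here. Libraries were not pooled. No library pair within a group was alike within sampling noise. Genes with no name held 0.0327% of counts and were not removed before the filter on low counts.

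Groups were taken from the sample titles. The 13995 genes that reached 1 RPM in 12 or more of the 36 libraries were kept, scaled by TMM and fitted over all 6 groups with the robust quasi-likelihood test of edgeR 4.0.16 in R 4.3.3, with Benjamini-Hochberg FDR over all genes. The study's own test was limma-voom, run here as an alternative (limma 3.58.1) with DESeq2 1.42.0. The scripts were tested on simulated data. Intervals are 95%. RPKM used the exon union of GENCODE.

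Same-numbered libraries deviated together (every correlation over 0.1) in 6 of the 9 comparisons of 2 groups. The correlations were 0.626 to 0.754 for Tug1 KD against control at EPS 0h, and for example 0.228 to 0.517 for EPS 0h against Rest with the control LNA. The replicate block is printed where it changed a call, also outside those 6. EPS 3h against EPS 0h with the control LNA and Tug1 KD at Rest were not among the 6 (lowest correlations -0.0817 and -0.0962). All 7 genes were named throughout, with the 2 called genes of largest change per pathway list at each harvest with the control LNA, and the 3 genes of highest Pearson correlation with each member, of which 1 is not reported here. The members and lists were chosen with earlier results of these data known. Libraries held 17005079 to 24181167 counts on genes, and intervals cover the spread between wells.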

Additional observations from a re-analysis of the deposited data

Results flagged for a closer look

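Ier3 in Rest control replicate 6 stood apart from the rest of its group, at 113.6 RPM with the next library at 90.43 RPM. The gap took 0.660 of the group's range, above Dixon's 95% critical value for 6 libraries. Chance flags about 1 in 20 groups, and 42 groups were examined.

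The fall of Egr2 at EPS 0h with the Tug1 LNA differed between replicates 4 to 6 and replicates 1 to 3 by -0.8868 on the log2 scale (edgeR, FDR = 0.0418), being -0.99 and -0.09. Because the sets came from these same libraries, that FDR is not an independent test. In Rest Tug1 KD the Egr2 libraries of replicates 4 and 6 were the highest, at 56.1 and 73.4 RPM.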

How the results depend on the processing

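Alternatives covered the tool, the scaling, the filter, the libraries fitted, a block and each replicate set. Of the alternative values for called log2 fold changes, 351 kept direction and call, 45 lost the call and 0 turned; of those for uncalled values, 866 stayed, 42 became calls and 82 turned, the latter without a call. The cause of these changes was not tested. The fit without the EPS 3h libraries of replicate 3 and the test between the replicate sets were added after seeing the data. The set block takes replicates 1 to 3 and 4 to 6 as its levels.

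The replicate block moved the count of called members from 2 to 4 for EPS 3h against EPS 0h with the control LNA (Ier2, FDR = 0.00443, and Ier3, FDR = 0.0186), from 1 to 2 for Tug1 KD at EPS 0h and from 0 to 1 for Tug1 KD at EPS 3h. It also called Ier2 for Tug1 KD at Rest (FDR = 0.00409) and, beside the calls given with the results, changed no other. For Tug1 KD at EPS 0h the count was 2 with DESeq2, library size or the set block, 4 with upper quartile factors, and 0 with no filter or a stricter one. For Tug1 KD at Rest it was 1 with no filter and 0 in replicates 4 to 6. At FDR under 0.05 without the fold threshold 2 members rose at EPS 3h with the control LNA and 3 with the Tug1 LNA. Of 21 like genes 10 stayed by Spearman's rho and 12 after centring within the sets. Leaving out 1 replicate gave counts of 1 to 3 and 1 to 2 at EPS 0h (control, Tug1 KD), 1 to 2 for Tug1 KD at Rest and 0 to 2 at EPS 0h.

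Uncalled values turned as follows. In replicates 1 to 3, against Rest, Srf was -0.16 at EPS 0h (control), Egr3 0.13 at EPS 0h and Ier5 -0.18 at EPS 3h (Tug1 KD). For Tug1 KD, Srf was -0.0408 at Rest and Egr3 0.16 at EPS 3h, and interactions were 0.0306 (Ier3, EPS 0h), -0.20 (Ier5, EPS 3h) and 0.0071 (Srf, EPS 3h). In replicates 4 to 6, Egr2 was -0.0643 at EPS 3h (control) and Egr3 0.24 from EPS 0h to EPS 3h, Srf 0.26 at EPS 0h and Egr3 -0.22 at EPS 3h (Tug1 KD against Rest). For knockdown there, Egr2 was 0.028 at Rest, and at EPS 3h Egr1 was -0.0799, Ier2 0.0905 and Srf 0.0083. Interactions there were -0.0609, -0.16, -0.0121 and 0.02 at EPS 0h (Egr1, Egr2, Egr3, Ier2) and -0.0326, -0.13 and 0.083 at EPS 3h (Egr1, Egr3, Ier3).

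With library size alone, Ier5 at EPS 3h was -0.0955 (control) and -0.0905 (Tug1 KD), Egr3 -0.12 (Tug1 KD) and the Egr2 interaction at EPS 0h -0.0071. With limma-voom, Ier5 at EPS 3h was -0.001 (Tug1 KD), Srf knockdown at EPS 3h 0.0071 and the Ier5 interaction -0.0223. With no filter, Egr3 and Ier5 at EPS 3h were -0.11 and -0.0552 (Tug1 KD), and the interactions of Egr2 and Ier5 -0.0375 and -0.0557. With the stricter filter these were -0.0245 (Egr3), -0.0034 and -0.0027. The Egr2 interaction was also -0.0015 (DESeq2), -0.0204 (upper quartile), -0.0076 (groups compared alone), -0.0142 (replicate block) and -0.0089 (set block), and that of Ier5 -0.0271, -0.0115 and -0.0179 in the last 3.

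Leaving out libraries gave -0.11 to 0.21 for Ier5 at EPS 3h and, from EPS 0h to EPS 3h, -0.12 to 0.0846 for Egr3 and -0.0008 to 0.17 for Srf (control). With the Tug1 LNA it gave -0.19 to 0.0057 (Egr3) and -0.16 to 0.0316 (Srf) at EPS 0h, and -0.0759 to 0.18 (Egr3) and -0.012 to 0.25 (Ier5) at EPS 3h. For knockdown at EPS 3h it gave -0.051 to 0.0916 (Egr1), -0.10 to 0.0524 (Ier2) and -0.0841 to 0.0604 (Srf). Interactions ranged over -0.0241 to 0.18 (Egr1), -0.075 to 0.10 (Egr2) and -0.0814 to 0.0237 (Ier2) at EPS 0h, and -0.23 to 0.0028 (Ier3), -0.0977 to 0.13 (Ier5) and -0.17 to 0.0095 (Srf) at EPS 3h.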
